A study of Mus musculus with 20 samples.

Results

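Keratins are the intermediate filament proteins of epithelial cells, and each filament is built from pairs of an acidic type I and a basic type II protein. The lining of the gut is a simple epithelium, whose filaments are made mainly of the type II keratin Krt8 with the type I keratins Krt18, Krt19 and Krt20. Other keratins are known from ducts, stratified epithelia or hair follicles, and several appear when an epithelium is injured or grows. The 10 keratins described here were 6 of type I (Krt18, Krt19, Krt20, Krt23, Krt27 and Krt36) and 4 of type II (Krt7, Krt8, Krt80 and Krt90). They were chosen by name among the 54 keratin genes and 35240 gene symbols of the table, to set the keratins of simple epithelium beside those whose earlier known courses over the days were highest at the start. Their courses over the days are therefore given as descriptions without a test.

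The values came from mouse colonic organoids (colonoids), cultures grown in Matrigel from crypts of the colon. The mice were wildtype (WT) or lacked the TNF receptor TNFR2 in all tissues (Tnfr2-/-). WT mice were C57BL/6, and the knockout was the strain B6.129S2-Tnfrsf1btm1Mwm/J, whose name gives a 129S2 donor of the allele and a B6 background. Crypts came from the distal colon of mice aged 8 weeks, of both sexes, and the cultures had been passaged 5 times and broken up without going to single cells. RNA was taken 1, 2, 3, 5 or 7 days post-passage (DPP), where 1 to 3 DPP are called early and 5 to 7 DPP late, following the study. There were 20 libraries in 10 groups, with 2 libraries per genotype and day, from 2 mice per genotype. The replicate number is read here as the mouse, although no label says that libraries of one number on different days came from the same animal, and every value given by mouse rests on that reading. The cultures were mixed, since single-cell data of the study found fibroblasts beside epithelial cells in such colonoids at 7 DPP. Here the fibroblast gene Col3a1 was at 410 to 2182 over the 20 libraries. In a bulk library fewer cells of a type cannot be told apart from less RNA per cell.

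Normalised expression here means TPM, a length-normalised share of transcripts, divided by a size factor of the library and summed over the transcripts of a gene, which is a level per transcript length. Differences are given on the scale log2(normalised expression + 1), which understates the change of genes at low values. Adjusted p-values are from limma with Benjamini-Hochberg adjustment over 13539 genes with a mean of at least 1, and a gene is called at an adjusted p under 0.05. All 10 keratins passed this filter. The table gives no read depth, so values of a few units carry an unknown counting error. Where both libraries of a genotype lay above or under both of the other on a day, this is a description. With so few libraries it is often met without a difference, and the share of all genes was not counted. Every keratin had such a day, and several had them in both directions.

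Between 13007 and 13469 genes reached a value of 1 in a library. Tnfrsf1b, the gene of the deleted receptor, had a median of 14.3 in WT and 4.85 in Tnfr2-/- libraries, with ranges of 11.1 to 21.9 and 2.71 to 11.45 that overlapped at their edges. Its level fell by 1.35 on the log2 scale over all days (SE 0.167, limma adjusted p = 9.72e-05). The difference was -1.72 early (limma adjusted p = 0.000116) and -0.79 late (adjusted p = 0.0323), and by day it was called at 1 and 2 DPP but not at 3, 5 or 7 DPP (adjusted p = 0.107, 0.211 and 0.203). The change of this difference from early to late was 0.94 (limma adjusted p = 0.182). Epcam (362 to 1885) and Cdh1 (358 to 745) were present in every library. Libraries of WT mouse 1 stood apart from those of WT mouse 2 in markers of differentiated colon cells. At 3 DPP the summed level of 8 absorptive genes was 357.9 in mouse 1 and 3.998 in mouse 2, and that of 6 goblet genes was 284 and 2.75. Results that rest on this mouse are given without it below.

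The keratin genes lie in a cluster on chromosome 11 (27 genes in the table, of which 13 had a mean of at least 1) and a cluster on chromosome 15 (27 genes, of which 10 did). On the GRCm38 assembly, Krt27 (chr11:99345565-99351104), Krt20 (chr11:99428403-99438150), Krt23 (chr11:99477974-99493137), Krt36 (chr11:100102007-100105626) and Krt19 (chr11:100140810-100148665) all lie on the minus strand of chromosome 11. On chromosome 15, Krt80 (chr15:101347444-101370162), Krt90 (chr15:101552356-101562950) and Krt8 (chr15:101996698-102004482) lie on the minus strand, and Krt7 (chr15:101411043-101430313) and Krt18 (chr15:102028180-102032027) on the plus strand. Krt18 is the type I gene at the edge of the type II cluster, and 23698 bases separated it from Krt8.

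**Figure D1:**
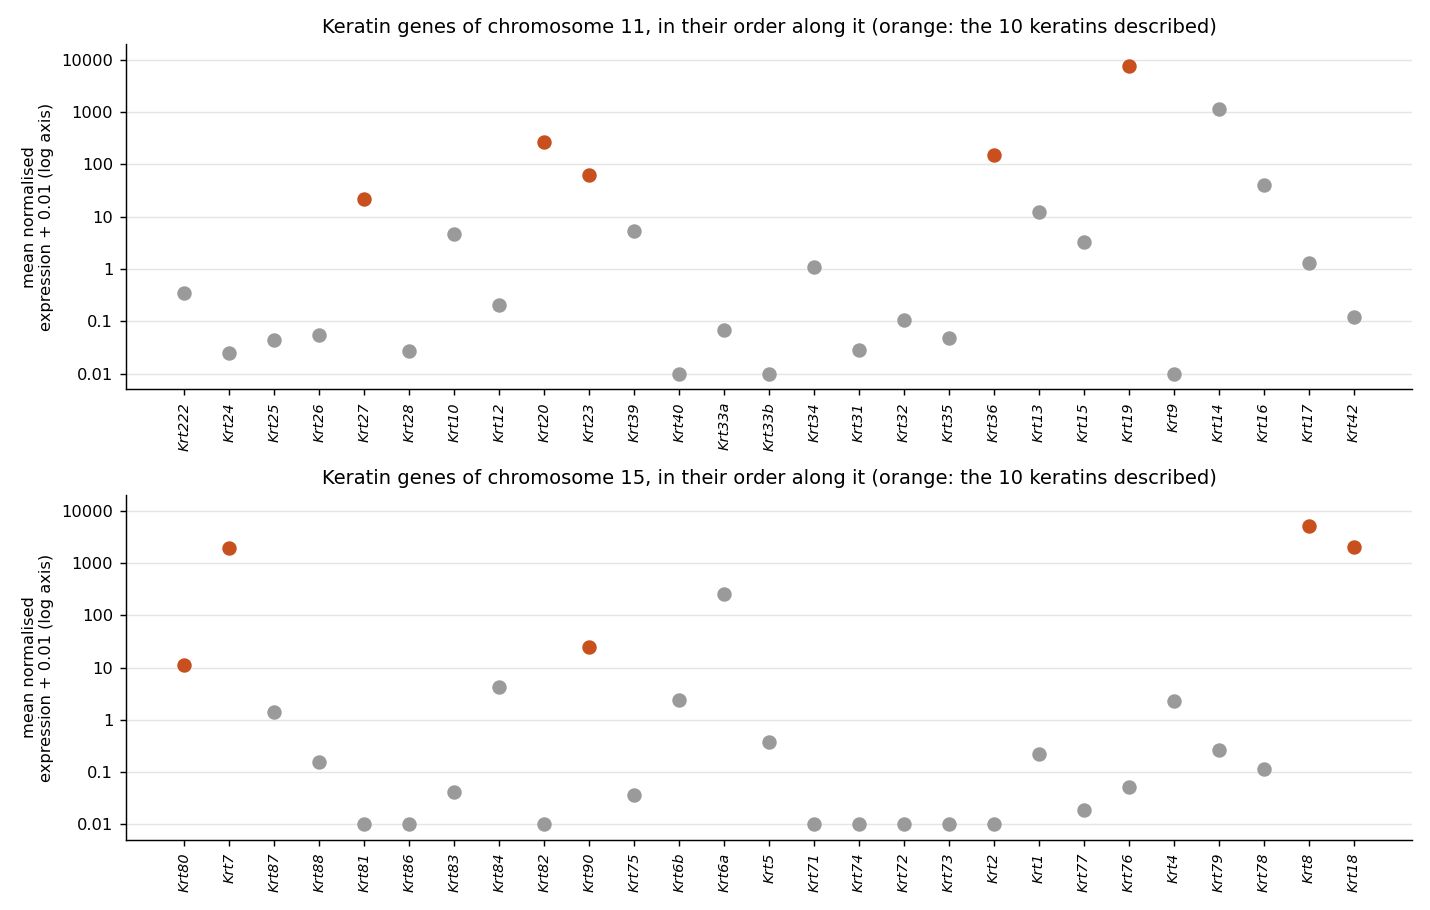
Mean normalised expression over 20 libraries of the 54 keratin genes of the table, on a log axis after adding 0.01, in their order along chromosomes 11 and 15; orange points are the 10 keratins described and grey points the other 44. Krt27, Krt36 and Krt90 stand at means of 21.6, 151 and 24.6, each next to at least 1 keratin under 0.1.

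Level was not shared by all neighbours in the clusters. Some adjacent keratins both had values, as Krt8 (5089) with Krt18 (1979), Krt20 (264) with Krt23 (61.3) and Krt36 with Krt13 (12.02). Krt27, a type I keratin known from the inner root sheath of the hair follicle, had a mean of 21.6, while its neighbours Krt26 and Krt28 had means of 0.0444 and 0.0170. Krt36, a hair-type acidic keratin, had a mean of 151 beside Krt35 at 0.0371, a keratin of the hair shaft. Krt90, a type II keratin, had a mean of 24.6 and lay 395 bases from Krt75, which had a mean of 0.0262. Hair follicle markers were near 0 beside them. Among 9 such genes with values, Tchh alone had a mean of at least 1 (4.26), while Krt71 and Krt72 were listed at 0 in every library.

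The promoters of 4 keratins are shown. Krt27 and Krt90 followed a like course from separate clusters. Krt23 and Krt20 are neighbours, of which Krt23 alone was called in the main genotype comparisons. They moved alike over the libraries (Pearson r of 0.62 on the log2 scale), and no test compared their differences. The 250 bases before the RefSeq transcription start (build GRCm38.p6) were available for 8 of the 10 keratins. The lines below are written 5′ to 3′ on the minus strand, the strand of each gene, and the 17 bases of the Krt23 window that fall inside its GENCODE gene model are left off. Capitals mark exact matches on either strand to any of 5 motifs, namely the TATA box as TATAAA, the CCAAT box, a form of the site of the intestinal factors Cdx1 and Cdx2 as TTTATG, the GC box as GGGCGG and the AP-1 site as TGANTCA. The windows of Krt27 and Krt90 lie at chr11:99351119-99351368 and chr15:101562951-101563200. The window of Krt23 lies at chr11:99493138-99493370 and that of Krt20 at chr11:99438154-99438403.
Krt27: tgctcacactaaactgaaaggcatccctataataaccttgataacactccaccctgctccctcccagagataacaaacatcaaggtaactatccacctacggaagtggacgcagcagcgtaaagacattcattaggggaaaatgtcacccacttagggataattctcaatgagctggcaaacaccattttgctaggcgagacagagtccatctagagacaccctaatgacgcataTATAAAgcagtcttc
Krt90: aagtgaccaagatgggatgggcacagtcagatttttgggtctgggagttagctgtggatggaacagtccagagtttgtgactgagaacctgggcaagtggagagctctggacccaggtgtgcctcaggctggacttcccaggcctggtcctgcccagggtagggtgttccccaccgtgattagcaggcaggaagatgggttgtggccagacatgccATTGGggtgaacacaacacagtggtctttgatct
Krt23: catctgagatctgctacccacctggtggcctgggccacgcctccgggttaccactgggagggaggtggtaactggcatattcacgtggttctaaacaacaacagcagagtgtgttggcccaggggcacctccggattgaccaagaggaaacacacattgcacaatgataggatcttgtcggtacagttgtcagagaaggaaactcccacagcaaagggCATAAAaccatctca
Krt20: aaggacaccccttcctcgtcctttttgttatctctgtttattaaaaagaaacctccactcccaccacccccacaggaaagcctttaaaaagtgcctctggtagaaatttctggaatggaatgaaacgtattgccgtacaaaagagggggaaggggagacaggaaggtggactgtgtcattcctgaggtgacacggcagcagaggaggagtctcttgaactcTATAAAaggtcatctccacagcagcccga

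TATAAA was found in 2 of the 8 windows, 29 to 24 bases before the start of Krt20 and 15 to 10 bases before that of Krt27, and in 12.4% of 32851 promoters of the same length. The Krt90 window held no TATAAA but a CCAAT match 34 to 30 bases before its start, a match found in 33.9% of all promoters. In Krt23 the only match was TTTATG, 32 to 27 bases before the start, which 10.8% of all promoters held. TGANTCA was in none of the 8 windows and in 6.75% of all promoters, and GGGCGG was in 1 of 8, that of Krt7, and in 32.7% of all. These are matches of letters and not measured sites, and the windows of Krt27 and Krt90 held different ones.

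By mean level the order was Krt19 (7460), Krt8 (5089), Krt18 (1979), Krt7 (1882), Krt20 (264), Krt36 (151), Krt23 (61.3), Krt90 (24.6), Krt27 (21.6) and Krt80 (11.03). On this summed scale Krt19 was above Krt8 in 20 of 20 libraries and Krt8 above Krt18 in 20 of 20. Weighted by transcript length, as described below, Krt19 ran from 3626 to 7024 and Krt8 from 3463 to 6607. With that weighting the order of Krt19 and Krt8 per library was not counted. Krt18 and Krt7 did not separate on the summed scale, with Krt18 the higher in 14 of 20 libraries. Weighted by length, Krt7 (381 to 1203) lay under Krt18 (1347 to 2544) in every library. Krt90 and Krt27 did not separate either, and Krt90 was higher in 8. The 10 keratins together held between 1.20% and 2.16% of the summed expression of a library. Krt8, Krt18 and Krt19 made up 84.1% to 90.7% of the sum of the 10 in every library of both genotypes. Krt14, which is not among the 10, had a mean of 1152.

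Summed type I expression exceeded summed type II expression in every library, by a ratio of 1.29 to 1.64 with a median of 1.43. The ratio was 1.29 to 1.42 in early WT and 1.29 to 1.47 in early Tnfr2-/- libraries, and 1.43 to 1.64 and 1.496 to 1.63 in the late ones. The late libraries lay above the early ones, in WT by no more than the step from 1.424 to 1.426. With Krt14 and Krt6a, the most abundant other keratins, added to the sums, the WT ratios were 1.38 to 1.53 early and 1.485 to 1.67 late and overlapped. Within the principal pair, Krt18 stood at 0.273 to 0.479 of Krt8 and Krt19 at 1.28 to 1.65 of Krt8. These ratios are of summed levels, which for Krt19 and Krt7 depend on the split over transcripts described below.

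Krt8 is the main type II keratin of intestinal cells. Its normalised expression in WT mice 1 and 2 was 4555 and 3788 at 1 DPP, 4551 and 5335 at 2 DPP, 5032 and 6607 at 3 DPP, 4697 and 5753 at 5 DPP, and 5149 and 4142 at 7 DPP. In Tnfr2-/- mice 1 and 2 it was 5405 and 4488, 6175 and 6145, 6350 and 6155, 5052 and 5342, and 3463 and 3586 on the same days. Both genotypes peaked at 3 DPP, and only at 7 DPP did both Tnfr2-/- libraries lie under both WT libraries. The late minus early difference was -0.00 (SE 0.108) in WT and -0.43 (SE 0.108) in Tnfr2-/- cultures.

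Krt18, the type I partner that pairs with Krt8, ranged from 1347 to 2422 in WT and from 1429 to 2544 in Tnfr2-/- libraries. At 3 DPP it was 1565 and 2422 in WT and 2544 and 2470 in Tnfr2-/- libraries, and at 7 DPP 1407 and 1698 against 1506 and 1429. WT mouse 1 was under WT mouse 2 on each day from 2 DPP, and the WT libraries were spread more widely than the Tnfr2-/- ones in the early days. Krt19, the smallest type I keratin and one found in intestinal crypts, was 6001 and 4833 at 1 DPP and 7500 and 9011 at 3 DPP in WT, and 8147 and 6548, then 9354 and 8752, in Tnfr2-/- cultures. By 7 DPP its values of 7166 and 6492 in WT lay above those of 5246 and 5890 in Tnfr2-/- libraries. The early groups and the late groups of both keratins overlapped between genotypes.

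**Figure D2:**
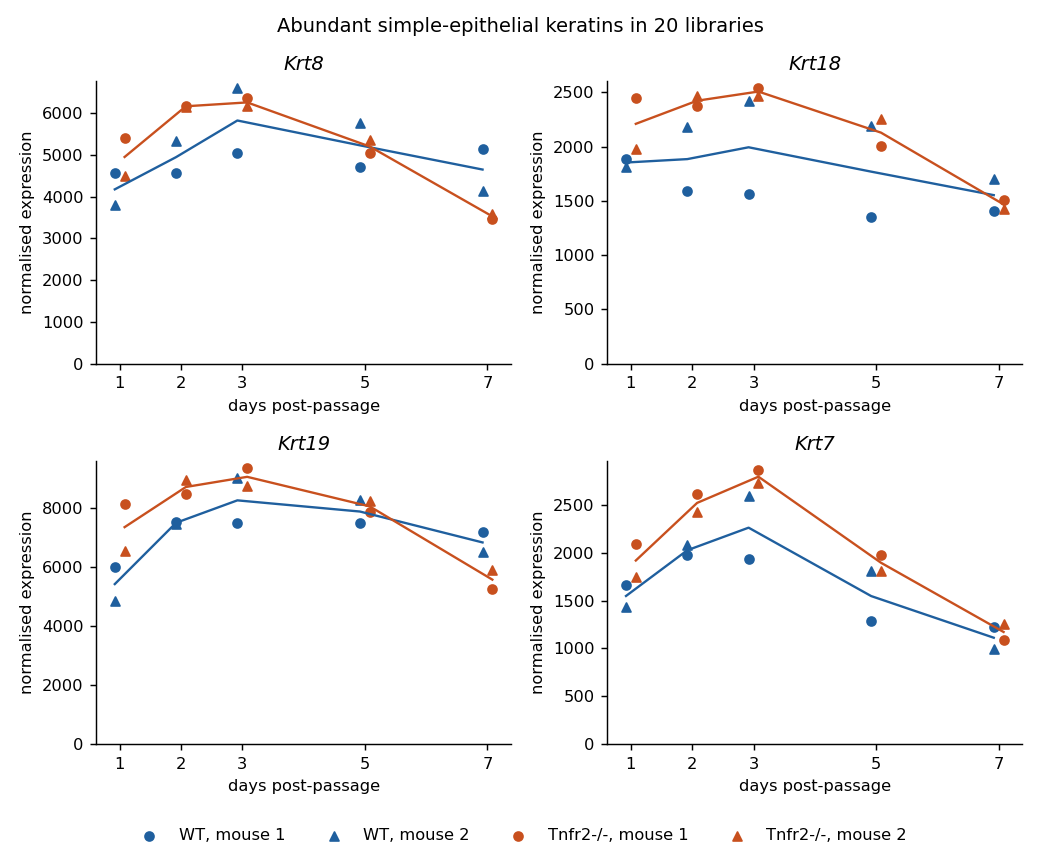
Normalised expression (y axis, from 0) of Krt8, Krt18, Krt19 and Krt7 by days post-passage (x axis), with a point for each of 20 libraries, blue for WT and orange for Tnfr2-/-, circles for mouse 1 and triangles for mouse 2, and lines through the mean of 2 mice. All 4 have their highest mean at 3 DPP in both genotypes, and at 7 DPP the Tnfr2-/- libraries of Krt8 and Krt19 lie under the WT ones.

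Krt7, a type II keratin of ducts and of many glandular epithelia, was measured at 1665 and 1434, 1976 and 2081, 1933 and 2597, 1285 and 1812, and 1227 and 997 in WT mice 1 and 2 at 1, 2, 3, 5 and 7 DPP. The Tnfr2-/- values were 2095 and 1747, 2621 and 2428, 2867 and 2731, 1983 and 1812, and 1087 and 1258. Both Tnfr2-/- libraries were above both WT libraries at 1, 2 and 3 DPP, the nearest pair of libraries was level at 1812 at 5 DPP, and at 7 DPP the groups overlapped. Its level fell by 0.56 (SE 0.118) in WT and by 0.68 (SE 0.118) in Tnfr2-/- cultures from the early to the late days on the log2 scale, so it was lower late but stayed abundant.

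**Figure D3:**
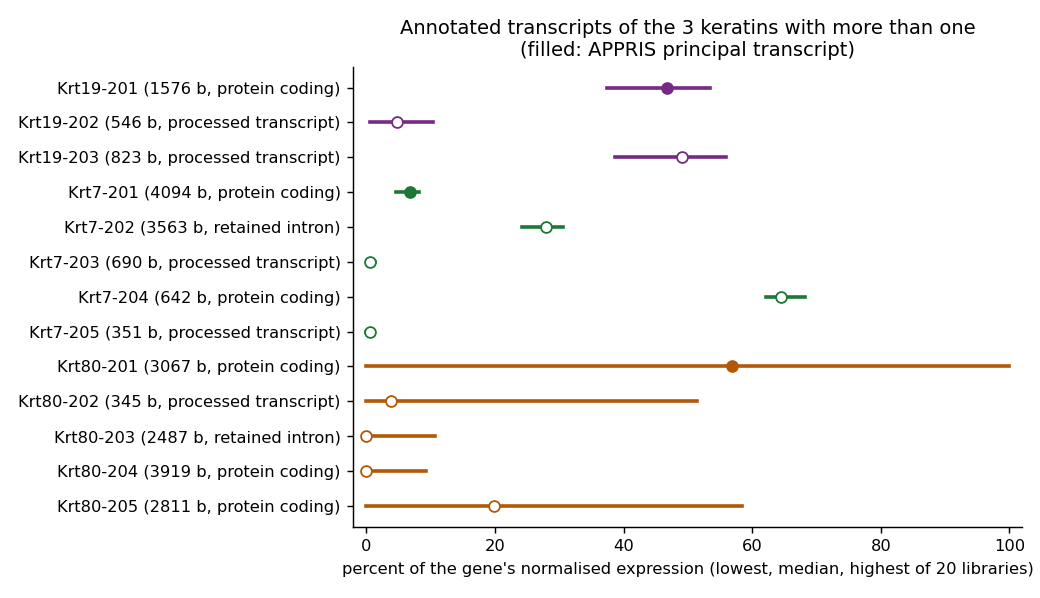
Share of the gene's normalised expression (x axis, percent) assigned to each annotated transcript of Krt19, Krt7 and Krt80, with a line from the lowest to the highest and a point at the median of 20 libraries, filled for the APPRIS principal transcript. The principal transcript of Krt7 has a median share of 6.76%, and the shares of Krt80 transcripts run from 0 to 100%.

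The values of 3 keratins were split over several annotated transcripts, and the other 7 had a single one. For Krt7, a median of 64.5% was assigned to a coding model of 642 bases in 7 exons, 27.9% to a retained intron model of 3563 bases, and 6.76% to the APPRIS principal transcript of 4094 bases. Because expression per length weights short models heavily, the sum for Krt7 depends on this split. Weighted by length and expressed per principal transcript, its mean was 771 in place of 1882, further under Krt18 (1979) than the sum was. For Krt19, the principal transcript of 1576 bases held a median of 46.7% and a non-coding model of 823 bases 49.1%, and the length-weighted mean was 5443. The principal transcript of Krt80 held between 0 and 100% of its expression, so the split between its models varied widely from library to library.

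Krt20 is the keratin of differentiated cells at the surface of the gut. It dipped in the middle days. In WT mice 1 and 2 it was 465 and 349 at 1 DPP, 136 and 225 at 2 DPP, 75.1 and 176 at 3 DPP, 147 and 170 at 5 DPP, and 550 and 197 at 7 DPP. The Tnfr2-/- values were 307 and 319, 230 and 226, 152 and 209, 301 and 363, and 358 and 330. The lowest mean was at 3 DPP in both genotypes, the day on which Krt8, Krt18, Krt19 and Krt7 had their highest. The WT mice parted at 7 DPP, where mouse 1 was far above mouse 2, while the Tnfr2-/- mice lay close together on both late days.

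Krt23 is a type I keratin that is low in most resting epithelia. In WT mice 1 and 2 its normalised expression was 59.1 and 47.2 at 1 DPP, 35.1 and 36.2 at 2 DPP, 30.3 and 24.1 at 3 DPP, 20.1 and 26.8 at 5 DPP, and 56.7 and 25.5 at 7 DPP. In Tnfr2-/- mice it was 67.8 and 55.9, 53.4 and 51.9, 59.6 and 67.5, 113 and 99.2, and 156 and 140. The WT level drifted down to 5 DPP, while the Tnfr2-/- level climbed after 3 DPP, and from 2 DPP on every Tnfr2-/- library was above both WT libraries of its day. In the late days the lowest Tnfr2-/- library (99.2) was above the highest WT library (56.7).

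Krt36 had an arch over the days. It was 28.8 and 17.3, 142 and 102.2, 386 and 295, 208 and 160, and 60.3 and 37.7 in WT mice 1 and 2 at 1, 2, 3, 5 and 7 DPP, and 68.7 and 42.8, 226 and 163, 269 and 167, 240 and 169, and 136 and 110 in Tnfr2-/- mice. The mean at 3 DPP was 14.8 times that at 1 DPP in WT and 3.90 times in Tnfr2-/- cultures, so the arch was steeper in WT. Krt36 was therefore highest in the middle days and lowest at 1 DPP. At 1, 2 and 7 DPP both Tnfr2-/- libraries lay above both WT libraries, and at 3 DPP both lay under.

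**Figure D4:**
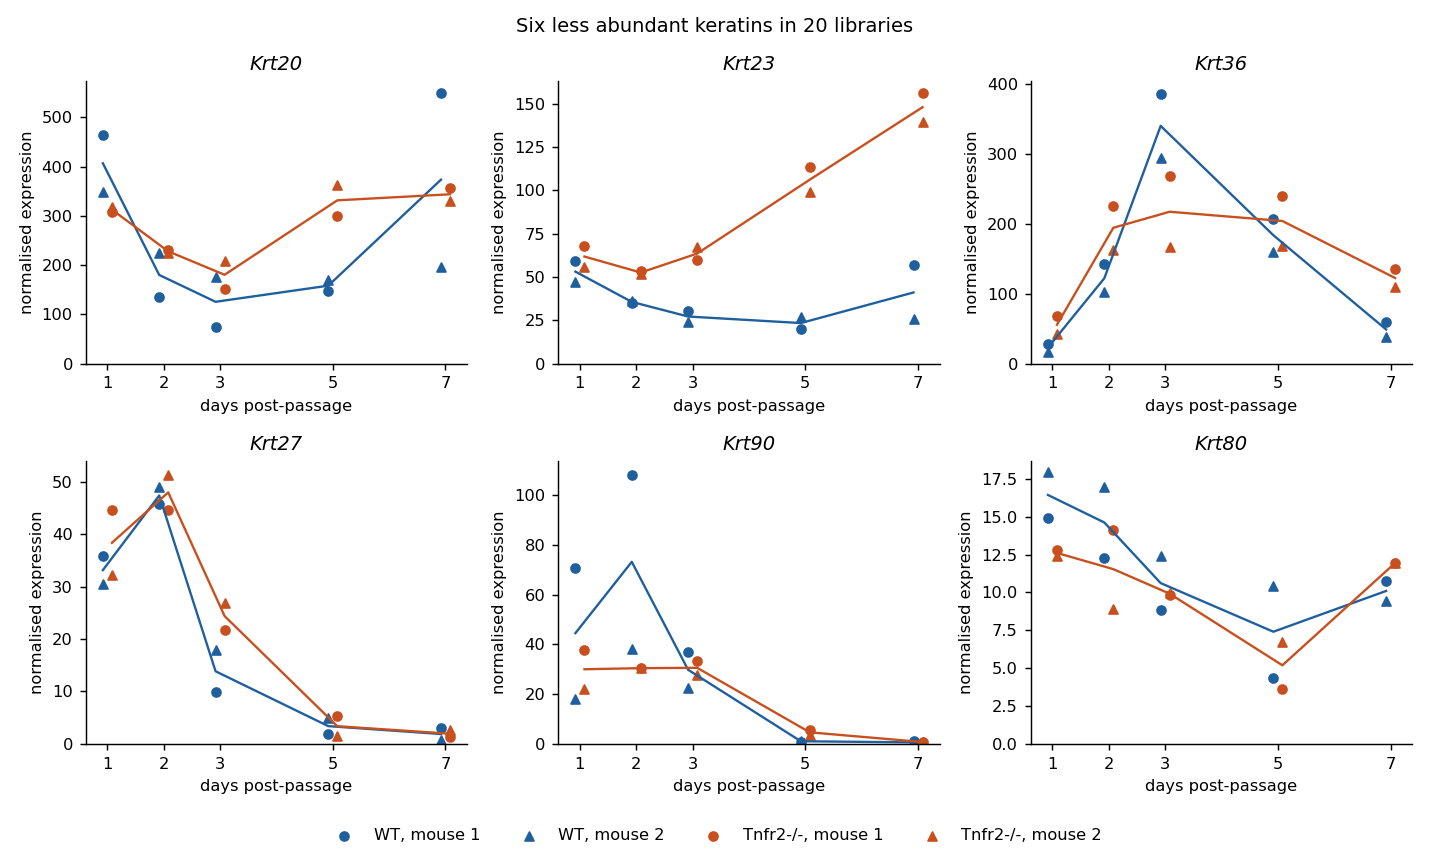
Normalised expression (y axes, from 0) of Krt20, Krt23, Krt36, Krt27, Krt90 and Krt80 by days post-passage (x axes), with a point per library, blue for WT and orange for Tnfr2-/-, circles for mouse 1, triangles for mouse 2, and lines through the mean of 2 mice. Krt23 reaches 140 to 156 in Tnfr2-/- libraries at 7 DPP against 25.5 to 56.7 in WT, and Krt27 and Krt90 lie under 6 in all late libraries.

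Krt27 and Krt90 were the 2 keratins that were high in the early days alone. Krt27 was 35.9 and 30.4 at 1 DPP, 45.8 and 49.0 at 2 DPP, 9.81 and 17.9 at 3 DPP, 1.89 and 4.88 at 5 DPP, and 3.09 and 0.679 at 7 DPP in WT mice 1 and 2. In Tnfr2-/- mice it was 44.5 and 32.2, 44.6 and 51.4, 21.8 and 26.9, 5.29 and 1.45, and 1.27 and 2.61. Over both genotypes the 12 early libraries ran from 9.81 to 51.4 and the 8 late ones from 0.679 to 5.29, with no overlap. Its peak was at 2 DPP in both genotypes, with a mean 25.2 times the lowest in WT and 24.7 times in Tnfr2-/- cultures.

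Krt90 was 70.8 and 18.2, 108 and 38.2, 37.1 and 22.4, 0.821 and 1.304, and 1.02 and 0.197 in WT mice 1 and 2 over the 5 days. The Tnfr2-/- values were 37.9 and 22.1, 30.3 and 30.5, 33.5 and 27.6, 5.71 and 3.57, and 0.737 and 0.755. WT mouse 1 was the highest library on each early day, while the other 3 mice stayed between 18.2 and 38.2. At 5 DPP both Tnfr2-/- libraries were still above both WT libraries, and by 7 DPP all 4 libraries were at about 1 or less. The late minus early difference was -4.55 (SE 0.364) in WT and -3.32 (SE 0.364) in Tnfr2-/- cultures, against -3.12 (SE 0.321) and -3.44 (SE 0.321) for Krt27.

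Krt80, a type II keratin linked to desmosomes in several epithelia, had the lowest mean of the 10 over the 20 libraries and ranged from 3.65 to 17.9. In the late libraries Krt27 and Krt90 were lower, with medians of 2.25 and 0.921. Its highest mean was at 1 DPP (16.4 in WT and 12.6 in Tnfr2-/- cultures) and its lowest at 5 DPP (7.40 and 5.19), with a return to 9.43 to 11.96 at 7 DPP. The swing was 2.22 times in WT and 2.43 times in Tnfr2-/- cultures, small beside those of Krt27 and Krt90. With libraries centred on the mean of 8 epithelial markers, whose summed level was 1944 to 3671 in early and 3288 to 7362 in late WT libraries, the late minus early differences moved down for every keratin, to -4.10 and -4.25 for Krt27, -5.53 and -4.13 for Krt90, -0.98 and -1.24 for Krt8 and -0.80 and -0.28 for Krt20 in WT and Tnfr2-/- cultures. Under this scaling the median of all genes was -0.96 in WT and -0.79 in Tnfr2-/- cultures. Centring subtracts the same amount from every gene, so it can only lower these differences. Those of Krt27 and Krt90 were far larger than the shift, and those of Krt20 in both genotypes, Krt19 in WT and Krt36 in Tnfr2-/- cultures turned from above to below 0. Krt23 in Tnfr2-/- cultures was 1.07 without and 0.26 with the centring.

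The keratins fell into sets that moved alike over the 20 libraries, which come from 4 mice and share their days, so that these correlations are descriptions. Krt8 and Krt19 had a Pearson r of 0.93 on the log2 scale, Krt27 and Krt90 of 0.92, Krt7 and Krt8 of 0.84, and Krt7 and Krt18 of 0.82. Krt20 ran against Krt36 at -0.62 and against Krt19 at -0.45, and with Krt23 at 0.62. Krt7 moved with both sets, at 0.73 with Krt90 and 0.71 with Krt27.

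Among 10644 other genes with a mean of at least 5, those most like Krt27 over the 20 libraries were Bmp8b (r = 0.964), Ran (0.946) and Hars (0.935), and those most like Krt90 were Adss (0.949), the cell cycle kinase Cdk1 (0.948) and Bmp8b (0.937). Krt23 was most like Ier3 (0.938), the chemokine receptor gene Ackr4 (0.935) and the cytokine gene Il6 (0.931). Closest to Krt7 were Lmna (0.940), Wfdc2 (0.922) and Aprt (0.909), and to Krt18 Anxa3 (0.925), Serpinb2 (0.866) and Wfdc2 (0.864). For Krt8 they were Pcsk6 (0.876), Tuba4a (0.870) and Slc4a11 (0.864), and for Krt19 Dok7 (0.889), Gjb2 (0.863) and Pcsk6 (0.856). Krt20 was nearest to Dhrs9 (0.908), Gpr137b-ps (0.895) and Piezo2 (0.867), Krt36 to Gmpr (0.845), Hopx (0.843) and Zfp750 (0.842), and Krt80 to Jam3 (0.806), Tgfbi (0.797) and Arxes2 (0.795). The measure is the correlation of log2(normalised expression + 1) and carries no p.

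The comparison of the genotypes asked whether loss of TNFR2 altered keratin expression over the days. Krt23 was higher in Tnfr2-/- cultures over all days and in the late days, where its difference was 2.04 on the log2 scale, and Krt7 passed the threshold over all days with a difference of 0.27. The other 8 keratins were not called in any genotype comparison. For Krt27 and Krt90 this is no test result, because their course in WT was among the values that chose them. Over all days 2 of the 10 keratins were called, both higher in Tnfr2-/- cultures, where 7.60% of all genes tested were called in either direction and 4.51% were higher. In the late days it was 1 of 10, against 6.45% in either direction and 3.80% higher, and counts of 1 or 2 genes of 10 do not stand apart from such shares. Without WT mouse 1 the counts were 1 over all days (Krt23) and 2 late (Krt23 and Krt20), and without Tnfr2-/- mouse 1 they were 0 and 0 by limma. The median difference of the 10 keratins over all days was 0.23, against -0.03 over all genes.

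Krt23 exceeded WT in Tnfr2-/- cultures by 1.21 on the log2 scale across the 5 days (SE 0.210, limma adjusted p = 0.00205), and at the late days by 2.04 (SE 0.198, adjusted p = 9.90e-05). By day it was 0.22 (SE 0.279) at 1 DPP, 0.55 at 2 DPP and 1.20 at 3 DPP, none of them called, and 2.14 at 5 DPP (limma adjusted p = 0.00167) and 1.93 at 7 DPP (adjusted p = 0.00771). At 5 DPP 1 of 10 keratins was called, against 1.65% of all genes (1.21% higher), and at 7 DPP 1 of 10, against 0.820% (0.620% higher). At the early days its difference of 0.66 (SE 0.161) missed the threshold with a limma adjusted p of 0.0751. This early difference was 0.76 without WT mouse 1 and 0.56 without WT mouse 2. It was not called in 31 of 36 alternatives, with limma adjusted p-values up to 0.815. Krt23 stands in a list of genes that the study drew from these same libraries, so its direction is not independent evidence.

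If a replicate number is a mouse, its 5 libraries are repeated samples of that animal. A fit that treats them as independent can then give p-values that are too small. With the mouse as a correlated replicate block, Krt23 stayed called at the late days (limma adjusted p = 0.000157), and on mouse means, 2 mice against 2, it had the same difference of 2.04 with an adjusted p of 0.132. Without WT mouse 1 the late difference of Krt23 was 2.22 (limma adjusted p = 0.000198), and without Tnfr2-/- mouse 1 or mouse 2 it was 1.95 (adjusted p = 0.0701) or 2.12 (adjusted p = 0.0595), which are not called. Over all days the value without Tnfr2-/- mouse 1 was 1.16 (limma adjusted p = 0.0530). With the libraries centred on the mean of 8 epithelial markers the late difference was 2.16 (limma adjusted p = 0.000388) and that over all days 1.23 (adjusted p = 0.00651). Markers of other cell types also differed between the late groups. The summed level of 8 fibroblast genes at 5 and 7 DPP was 1194 and 1756 in WT mouse 1 and 3263 and 3926 in WT mouse 2, against 3652 to 8327 in late Tnfr2-/- libraries. Absorptive markers were at 162 to 1118 in late WT and 23.6 to 28.3 in late Tnfr2-/- libraries, and goblet markers at 184 to 1802 and 99.1 to 244. The sum of 4 immune genes was 8.60 to 16.8 and 19.5 to 45.1, including Cd68, a macrophage gene that ran from 7.12 to 42.5 over the 20 libraries, while Ptprc, which marks all leukocytes, was at no more than 0.753. The part of these cells in the difference of Krt23 was not tested.

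Whether the Krt23 difference itself grew from early to late gave a change of 1.38 (SE 0.255) and a limma adjusted p of 0.0543, above the threshold, with a range of adjusted p from 0.00129 to 0.929 over 36 alternatives. The change was positive in each of them, from 1.10 to 1.66. With the mouse as a correlated replicate block its adjusted p was 0.0345, and on mouse means it was 0.265 and not called. Of the 7 keratins tested in this comparison 0 were called by limma, against 0.148% of all genes, and 3 had an unadjusted p under 0.05, against 11.7% of all genes. Krt8 (-0.42, SE 0.152, limma adjusted p = 0.295) and Krt19 (-0.40, SE 0.132, adjusted p = 0.265) had negative changes that were not called. For Krt7, Krt27 and Krt90 the change is not given as a test, because their course in WT was among the values that chose them.

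Krt7 was higher over all days by 0.27 on the log2 scale (SE 0.0761, limma adjusted p = 0.0400), a call that was not stable. With the mouse as a correlated replicate block its adjusted p was 0.0903, without WT mouse 1 the difference was 0.22 (adjusted p = 0.105), and of 37 alternatives 24 lost the call while keeping the direction. The principal transcript alone gave 0.33 (limma adjusted p = 0.101). Neither the late difference of 0.20 nor the early difference of 0.31 was called. The course of Krt7 in WT was among the values that chose it.

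**Figure D5:**
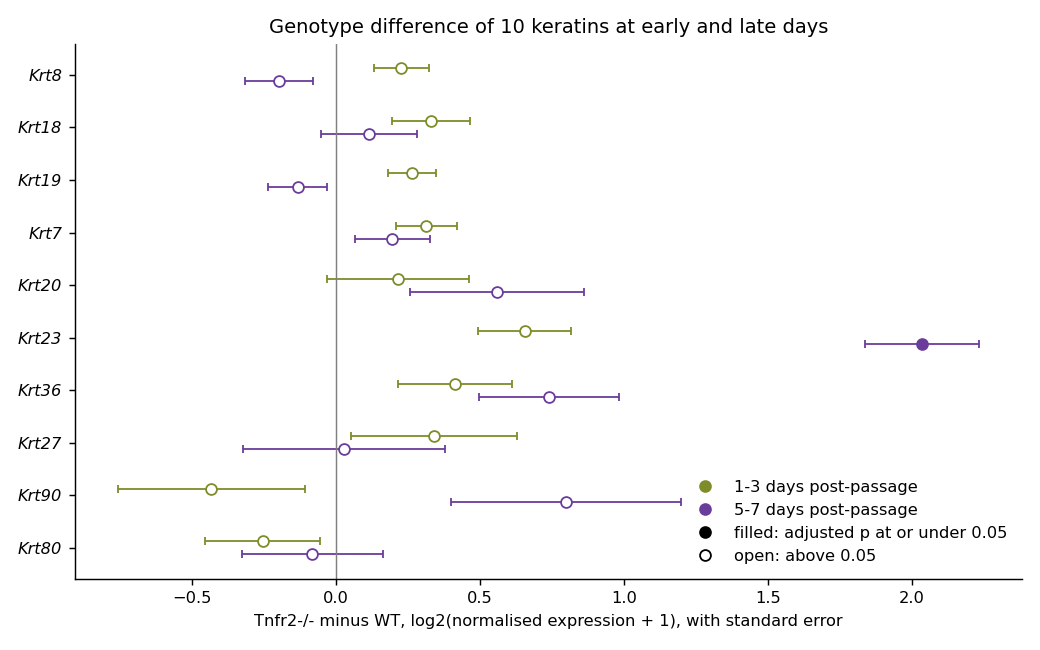
Difference between Tnfr2-/- and WT cultures on the log2(normalised expression + 1) scale (x axis) for each of the 10 keratins (y axis), at the early days in green and the late days in purple, with standard errors; filled points passed an adjusted p of 0.05. Only the late difference of Krt23, at 2.04, is filled.

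At the early days 0 of the 10 keratins were called by limma, where 1.20% of all genes were, and 5 had an unadjusted p under 0.05, as had 12.9% of all genes. The 10 include Krt7, Krt27 and Krt90, whose course in WT was among the values that chose them, and Krt7 is among these 5. The 5 were Krt7 (0.31), Krt8 (0.23), Krt18 (0.33), Krt19 (0.27) and Krt23 (0.66), each higher in Tnfr2-/- cultures, with limma adjusted p-values of 0.0751 to 0.33. No keratin was called at 1, 2 or 3 DPP, where 0.0739%, 0.0960% and 0.155% of all genes were called. At an unadjusted p under 0.05 were 2, 0 and 1 of the 10, and 6.05%, 7.43% and 8.69% of all genes. Krt18 had a difference of 0.24 over all days (SE 0.101, limma adjusted p = 0.161), which was 0.04 without WT mouse 1 and 0.45 (adjusted p = 0.00909, called) without WT mouse 2, so it rested on which WT mouse was used. The same held late (-0.13 and 0.36, the second with a limma adjusted p of 0.0473) and early (0.16 and 0.50, the second with an adjusted p of 0.0136). Krt8 and Krt19 had differences of 0.06 and 0.11 over all days, and the sign for Krt8 turned to -0.015 with the libraries rescaled to the same sum.

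Krt36 had positive differences at 1 DPP (1.25, SE 0.344), 2 DPP (0.67) and 7 DPP (1.34, SE 0.344) and a negative one at 3 DPP (-0.67, SE 0.344), none of them called, with limma adjusted p-values of 0.0942 at 7 DPP and 0.445 at 1 DPP. Over all days its difference was 0.54 (SE 0.223, limma adjusted p = 0.157) and at the late days 0.74 (SE 0.243, adjusted p = 0.0913). With the replicate number as a fixed replicate block, Krt36 was called early, late and at 1 and 7 DPP, as given below. The value over all days was 0.80 without WT mouse 1, 0.28 without WT mouse 2, 0.28 without Tnfr2-/- mouse 1 and 0.81 without Tnfr2-/- mouse 2, none of them called. For Krt20 the late difference was 0.56 (SE 0.301, limma adjusted p = 0.294), and 0.88 without WT mouse 1. Leaving out a library or a mouse gave 0.19 to 0.93, and 1 of 36 alternatives called it. The early difference of Krt90 was -0.43 (SE 0.325) with WT mouse 1 and 0.25 without it, and -1.11 without WT mouse 2, so its direction rested on the high early libraries of WT mouse 1. These are given without a test, since early values of Krt90 were among those that chose it. Krt27, given without a test for the same reason, had differences of 0.34 early and 0.03 late. Krt80 had differences of -0.25 (SE 0.200) early and -0.08 (SE 0.245) late, each less than 2 of its standard errors from 0.

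Of the 44 other keratins 13 passed the filter on low values. The highest by mean were Krt14 (1152), Krt6a (254), Krt16 (39.5), Krt13 (12.02), Krt39 (5.41) and Krt10 (4.61), so Krt14, a keratin of the basal layer of stratified epithelia, ranked above Krt20. Its usual partner Krt5 had a mean of 0.372 and was listed at 0 in 10 libraries, and Trp63, the transcription factor of squamous basal cells, was listed at 0 in 18. Summed over 12 squamous markers the level was 833 to 3177 in early WT, 925 to 2478 in late WT, 856 to 2911 in early Tnfr2-/- and 1083 to 1973 in late Tnfr2-/- libraries, led by Krt14, and their part in the values of the 10 keratins was not tested.

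Krt13, a type I keratin of wet stratified epithelia, was the only other keratin called between genotypes, 1 of 13 beside 7.60% of all genes over all days and 6.45% late, a share near the background. In the late days its lowest, median and highest values were 0.631, 3.09 and 5.71 in 4 WT libraries and 10.99, 22.95 and 37.7 in 4 Tnfr2-/- libraries, without overlap. Its difference was 2.65 at the late days (SE 0.495, limma adjusted p = 0.00801) and 1.49 over all days (SE 0.372, adjusted p = 0.0221). With the mouse as a correlated replicate block these adjusted p-values were 0.0105 and 0.0548. Leaving out a library or a mouse gave late differences of 1.96 to 3.34. The late difference was 3.34 without WT mouse 1. Without Tnfr2-/- mouse 1 or mouse 2 it was 2.72 or 2.57, and the call was lost. Krt13 is the neighbour of Krt36 in the chromosome 11 cluster, 11701 bases away, and is also one of the squamous markers.

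From the early to the late days 4 of the 13 other keratins were called in WT cultures, all lower, where 20.1% of all genes were called, 11.6% higher and 8.52% lower. They were Krt16 (-1.96), Krt4 (-1.81), Krt39 (-1.13) and Krt6b (-1.06), with limma adjusted p-values of 0.00188 to 0.0482. In Tnfr2-/- cultures, where 20.3% of all genes were called, 10.4% higher and 9.93% lower, Krt4 (-1.58), Krt39 (-1.17) and Krt14 (-0.93) were lower and Krt15 (1.05) was higher late, with limma adjusted p-values of 0.00446 to 0.0475. Krt4 and Krt39 therefore fell in both genotypes, and centred on epithelial markers they were -2.79 and -2.10 in WT and -2.39 and -1.98 in Tnfr2-/- cultures. By limma under that centring 10 of the 13 were called lower in WT and 5 in Tnfr2-/- cultures, beside 64.0% and 44.4% of all genes, and 0 were called higher, with Krt15 at 0.24 in Tnfr2-/- cultures. Krt16, an injury keratin of stratified epithelium, had medians of 56.8 early and 13.7 late in WT and of 42.0 and 34.2 in Tnfr2-/- cultures.

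Keratin filaments are anchored at desmosomes by plakins such as desmoplakin, at hemidesmosomes by integrin α6β4, and are reorganised through 14-3-3 proteins. All 24 genes of this list of keratin partners passed the filter. Over all days 5 were higher in Tnfr2-/- cultures and 0 lower, where 7.60% of all genes were called: Ywhaz (0.31) and Sfn (0.38), both 14-3-3 proteins, Lamb3 (0.47), a laminin chain, Lmna (0.21), a nuclear lamin, and Vim (1.04), the intermediate filament of mesenchymal cells. Their limma adjusted p-values ran from 0.00360 to 0.0402. Of 36 alternatives the call was kept in 32 for Ywhaz, 31 for Lamb3, 30 for Vim, 28 for Lmna and 14 for Sfn. With the mouse as a correlated replicate block the calls of Lmna (limma adjusted p = 0.0571) and Sfn (adjusted p = 0.0900) were lost. Centred on epithelial markers the differences were about as large (Vim 1.07, Sfn 0.41, Lamb3 0.49, Ywhaz 0.33 and Lmna 0.24), but with limma adjusted p-values of 0.145 to 0.748 none was called, in a fit that called 1.31% of all genes. The 5 calls were also lost without Tnfr2-/- mouse 1 or without mouse 2. Without WT mouse 1 the difference of Vim was 0.59 (limma adjusted p = 0.144) and that of Lamb3 0.27 (adjusted p = 0.0721). In the late days Vim (1.69) and Ywhaz (0.35) were higher and Itgb4 (-0.54) lower, with limma adjusted p-values of 0.0122 to 0.0418, which made 3 of 24 against 6.45% of all genes. The late call was kept in 29 of 35 alternatives for Vim, 16 for Itgb4 and 11 for Ywhaz. Centred on epithelial markers the late differences were 1.81 for Vim, 0.47 for Ywhaz and -0.42 for Itgb4, with limma adjusted p-values of 0.146 to 0.904, in a fit that called 0.716% of all genes. With the mouse as a correlated replicate block the adjusted p of Ywhaz was 0.0574. Vim is also one of the fibroblast markers, and its values of 484 to 1528 in late Tnfr2-/- against 151 to 496 in late WT libraries overlapped slightly. At the early days 0 of 24 were called by limma, and 5 had an unadjusted p under 0.05, against 12.9% of all genes.

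On the deposited scale Dsc2, Dsg2 and Dsp were higher in the late days in both genotypes, and Ppl, Itga6 and Lmna lower. In WT cultures 6 of 24 partners were higher and 3 lower late than early, against 20.1% of all genes. Dsc2, a desmosomal cadherin, rose by 1.06 in WT (SE 0.121, limma adjusted p = 0.000187) and by 1.10 in Tnfr2-/- cultures (adjusted p = 0.000106). Dsg2 rose by 0.65 and 0.84 and Dsp by 0.57 and 0.47. Eppk1 (1.18), Jup (0.59) and Lamb3 (0.58) were also called higher in WT. In Tnfr2-/- cultures 4 were higher, the fourth being Csnk1a1 (0.38), and 4 lower, against 20.3% of all genes. Ppl, a plakin, changed by -0.38 and -0.63, Itga6 by -0.42 and -0.48, and Lmna by -0.38 and -0.45 in WT and Tnfr2-/- cultures, and Itgb4 by -0.47 in Tnfr2-/- cultures. Centred on epithelial markers, 17 of 24 partners were called lower by limma in WT and 11 in Tnfr2-/- cultures, beside 64.0% and 44.4% of all genes, and 0 were called higher, with Dsc2 at 0.09 and 0.29, Dsp at -0.41 and -0.34, and Lmna at -1.36 and -1.26. Csnk1a1 was at -0.44 in Tnfr2-/- cultures. Centring lowers every gene of a comparison by the same amount. The change of the genotype effect from early to late was called in 0 of 24 partners and 0 of 13 other keratins by limma, with 2 and 4 at an unadjusted p under 0.05, against 11.7% of all genes.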

How the data were processed

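Stranded mRNA libraries from 20 colonoid cultures were sequenced as single-end reads. Per the labels, the authors used CASAVA, quantified transcripts with kallisto against mm10 and compared them with sleuth (versions are not given in the labels). The deposited values are a signal, the authors' TPM divided by a size factor per library, with library sums of 900655 to 1111080. The read depth behind a value is unknown. Columns with the authors' own genotype test (p-values, q-values, test statistics and variance terms) were not used.

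Of 113974 lines, 781 repeated ones were dropped, 199 transcripts without a symbol (at most 0.0989% of a library) were left out, and values were summed per gene symbol to 35240 genes. limma 3.58.1 in R 4.3.3 was run with a mean-variance trend on log2(value + 1) of 13539 genes with a mean of at least 1, with two-sided p-values adjusted by Benjamini-Hochberg. The effect of genotype over all days was taken from a model of day as a factor and genotype, and other comparisons were contrasts among 10 groups. The fit was tested on simulated data with known changes. The test fixed for normalised values was used because the deposited values are not counts. p-values measure the spread between libraries of 2 mice per genotype.

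The 10 keratins, the marker lists and the partner list were chosen with earlier results of these data known. Named beside the 10 were the other keratins of highest mean or called between genotypes, at most 5 partners of lowest adjusted p per comparison and the 3 genes most like each keratin. Keratins and partners called between days beyond that, Krt5 and cluster neighbours were named after their values were seen. Krt85 of the hair follicle list was not analysed here. Positions and transcript models are from GENCODE M21 (GRCm38) and promoters from RefSeq.

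The replicate number was read as the mouse, which the labels do not state across days. Same-numbered WT and Tnfr2-/- libraries had deviations that correlated between -0.054 and 0.076, so numbers did not pair across genotypes. Those of a number across days correlated between 0.1 and 0.307 in WT and between -0.051 and 0.08 in Tnfr2-/- cultures. In Tnfr2-/- cultures the values thus gave no sign that a number is a single animal. Results by mouse there rest on that reading alone. Alternatives were other pseudocounts, filters and scalings, the mouse as a block, mouse means, no trend, day as a linear term, and leaving out each library or mouse. The principal transcript alone was added after seeing the data.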

Additional observations from a re-analysis of the deposited data

Results flagged for a closer look

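In 40 groups of 4 or 6 libraries (10 keratins by genotype and by early or late days), 2 held a library far from the others. The rule is set for draws from a single distribution. The groups pool different days, so its chance rate of about 1 in 20 does not apply. Krt20 was 550.2 in WT mouse 1 at 7 DPP, with the next of the 4 late WT libraries at 197. Krt18 was 1976 in Tnfr2-/- mouse 2 at 1 DPP, with the next of the 6 early Tnfr2-/- libraries at 2375.

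For 3 of the 10 keratins, both WT mice moved one way from early to late days and both Tnfr2-/- mice the other (log2 scale). Of the 13539 genes tested, 10.3% did so. The 10 include Krt7, Krt27 and Krt90, whose course in WT was among the values that chose them and which are not among the 3. For Krt23 the late minus early difference was -0.225 and -0.39 in WT mice and 1.138 and 1.007 in Tnfr2-/- mice. Krt19 changed by 0.073 and 0.09 in WT mice and by -0.428 and -0.201 in Tnfr2-/- mice, and Krt36 by -0.063 and -0.06 in WT mice and by 0.161 and 0.366 in Tnfr2-/- mice. The change of the genotype effect was not called for any of them by limma, with adjusted p-values of 0.0543 for Krt23, 0.265 for Krt19 and 0.718 for Krt36. For Krt23 without WT mouse 1 it was 1.46 (limma adjusted p = 0.0157). Centring on epithelial markers lowers these differences by the same amount for every gene, and gave -1.29 in WT and 0.26 in Tnfr2-/- cultures for Krt23, -0.90 and -1.13 for Krt19, and -1.04 and -0.55 for Krt36.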

How the results depend on the processing

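Counts of called keratins were 2 over all days, 1 at the late days and 0 at the early days. Over all days the count was 1 without a filter, with libraries rescaled to the same sum, centred on epithelial markers, with the mouse as a correlated replicate block, without the mean-variance trend, with day as a linear term or with the principal transcript alone, since Krt7 lost its call in each. On mouse means, 2 against 2, it was 0 over all days and 0 at the late days. The change of the genotype effect had 1 call (Krt23) with rescaled libraries and with the mouse block. The replicate number as a fixed replicate block, where the numbers share only a number, gave 2 calls at the late days and 2 at the early days (Krt23 and Krt36), 1 for the change (Krt23), 1 at 1 DPP (Krt36) and 2 at 7 DPP (Krt23 and Krt36). For Krt36 the limma adjusted p was then 0.000472 late, 0.0124 early, 0.0012 at 1 DPP and 0.000419 at 7 DPP. It moved no other keratin count. A fixed mouse block did so for none of the counts of other keratins and partners between days.

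Leaving out a library or a mouse gave counts of 0 to 3 over all days, 0 to 2 late, 0 to 3 early, 0 to 1 for the change, 0 to 2 at 3 DPP, 0 to 4 at 5 DPP and 0 to 2 at 7 DPP. Without Tnfr2-/- mouse 1 there were 0 calls over all days, and without either Tnfr2-/- mouse 0 late, at 5 DPP and at 7 DPP, while the differences of Krt23 stayed between 1.08 and 1.34 over all days and between 1.76 and 2.32 late. The 3 early calls and the 4 at 5 DPP came without WT mouse 2, and the early ones included Krt90, whose early values were among those that chose it. Other keratins between days were called 3 to 5 times in WT and 3 to 4 in Tnfr2-/- cultures, and partners 7 to 12 and 6 to 10 times.

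Differences near 0 changed sign. Over all days Krt8 was -0.015 and Krt90 0.000 with rescaled libraries, Krt90 was -0.104 with a pseudocount of 5, and Krt80 was 0.289 with the principal transcript alone, which also gave 0.574 late and 0.1 early. At the late days Krt27 was -0.019 with rescaled libraries and Krt80 0.042 when centred. Leaving out libraries moved Krt90 over all days between -0.388 and 0.512 (-0.093 without Tnfr2-/- mouse 1 and -0.076 without its 5 DPP library) and early between -1.112 and 0.25. Krt80 ran over all days between -0.388 and 0.02, late between -0.353 and 0.191 (0.147 without WT mouse 2), and in its change between -0.115 and 0.458 (-0.101 and 0.443 without the 5 DPP library of WT mouse 1 or 2). Krt27 late ran between -0.31 and 0.369 (-0.035 without WT mouse 2 and -0.143 without Tnfr2-/- mouse 1), and Krt18 late between -0.127 and 0.359 (-0.06 and 0.291 without the 5 DPP library of WT mouse 1 or 2). Krt20 early ran between -0.039 and 0.471 and its change between -0.229 and 0.918 (0.714 and -0.025 without the 7 DPP library of WT mouse 1 or 2), and Krt36 at 5 DPP between -0.109 and 0.392 (-0.047 without WT mouse 2). The causes were not tested. With centring, the median of all genes for late against early was -0.96 in WT. Levels of a few units, as for late Krt27 and Krt90, are limited by an unknown read depth.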
